A study of Mus musculus with 20 samples.

Results

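The heme enzymes described here are 9 genes, Alas1, Alad, Uros, Urod, Cpox, Ppox and Fech of heme synthesis and Hmox1 and Blvrb of heme breakdown. They were taken by gene name from the annotation of the arrays, with every non-control probe that carries one of these names. This gave 12 probes of 39429 on the array and 9 of its 30210 gene names. Alas1, Uros and Hmox1 had 2 probes each, and the other 6 genes had 1.

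RNA came from the prefrontal cortex of male Swiss-Webster mice, cut as a 1 mm slice of the frontal pole. Stressed mice were placed as intruders into cages of group-housed males, and control mice, their brothers, were left undisturbed in a separate room, so that room and stress cannot be told apart. All mice of the experiment, stressed and control, were put into single cages at 12 weeks of age and habituated for 22 days. The 4 stress groups had acute stress (1 encounter of 15 minutes), stress repeated over 8 days, stress repeated over 13 days (later encounters of 10 minutes), or the same 13 days and then 5 days of rest, here called recovery. Each had its own control group of the same time point, and mice of the first 3 were killed 24 hours after the last encounter. Each group gave 3 pools of RNA from 3 mice each, and a stress pool was hybridised together with its control pool on a dual-colour Agilent array. The study's methods describe a dye swap for every pair of pools. The 20 arrays analysed here are both orientations of pools 2 and 3 and, of pool 1, the array with stress in Cy5, and they gave 12 pool ratios; the swaps of pool 1 were not analysed here. All ratios below are log2 of stress over control, and n is 3 pools per time point unless stated.

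Heme is an iron porphyrin that hemoglobin, cytochromes and many other proteins carry. Its synthesis starts in the mitochondrion with 5-aminolevulinate synthase, passes through the cytosol and ends in the mitochondrion, where ferrochelatase inserts iron. Mammals have a pair of genes for the first enzyme, Alas1, used in all tissues and repressed by heme, and Alas2, used in red cell precursors. Heme oxygenase opens the ring to biliverdin, iron and carbon monoxide, and Hmox1 is its stress-inducible form, while biliverdin reductases carry biliverdin on to bilirubin. The question for these genes is whether the enzymes that every cell uses moved with social stress at the times when Alas2 and the hemoglobin genes did.

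Of the 12 probes, 11 were well above background in both channels of all 20 arrays. The exception was the second Uros probe, which was above background in the stress channel of 15 arrays and in the control channel of 10. Each probe is a 60-base oligonucleotide, and 3 are printed to show what the arrays measured in the synthesis enzyme Alad, the breakdown enzyme Hmox1 and Alas2, the gene that moved. The Alad probe lies at chr4:62172559-62172618 (build mm9, minus strand) and starts at base 787 of transcript NM_008525. The second Hmox1 probe lies at chr8:77620797-77620856 (plus strand) and starts at base 324 of NM_010442. The Alas2 probe lies at chrX:147004993-147005052 (plus strand) and starts at base 1806 of NM_009653. In the Alas1 probes, the best ungapped overlap with the Alas2 probe had 18 equal bases of 55 and 21 of 59, so neither Alas1 probe is near in sequence to it.
Alad probe: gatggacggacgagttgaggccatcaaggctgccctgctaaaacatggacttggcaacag
Hmox1 probe: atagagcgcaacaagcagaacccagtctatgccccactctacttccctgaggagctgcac
Alas2 probe: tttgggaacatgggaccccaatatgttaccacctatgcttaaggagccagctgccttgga

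The promoters of the pair of synthase genes are shown because Alas2 moved and Alas1 did not pass the test, with that of Urod as an example of an E-box. The windows run from 250 bases before to 50 bases after an annotated start and come from RefSeq (build GRCm38.p6), which matched 7 of the 9 genes with 11 windows, and Alas2 with 1. A GATA site (AGATAA on either strand, in capitals) was found in the Alas2 window and among the 11 windows in 1, that of Cpox, while 11.2% of all 32851 promoter windows hold one. The E-box CACGTG, in capitals in the Urod window, was in 4 of the 11 windows, both of Alad, 1 of Uros and that of Urod, against 7.15% of all windows. The antioxidant response element TGACNNNGC (either strand) was in 0 of the 11 windows, against 12.4% of all. Hmox1 and Fech had no window, so their promoters were not searched for any of these motifs. The Alas1 window printed holds none of these 3 motifs. These matches describe the letters in the windows.
Alas2 promoter, chrX:150547167-150547466, plus strand: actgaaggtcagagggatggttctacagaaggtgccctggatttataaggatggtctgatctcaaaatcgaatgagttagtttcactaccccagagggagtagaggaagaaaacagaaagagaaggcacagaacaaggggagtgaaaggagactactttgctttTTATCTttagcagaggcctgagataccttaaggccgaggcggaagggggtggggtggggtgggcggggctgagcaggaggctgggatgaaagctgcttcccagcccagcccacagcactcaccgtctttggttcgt
Alas1 promoter, chr9:106247681-106247980, minus strand: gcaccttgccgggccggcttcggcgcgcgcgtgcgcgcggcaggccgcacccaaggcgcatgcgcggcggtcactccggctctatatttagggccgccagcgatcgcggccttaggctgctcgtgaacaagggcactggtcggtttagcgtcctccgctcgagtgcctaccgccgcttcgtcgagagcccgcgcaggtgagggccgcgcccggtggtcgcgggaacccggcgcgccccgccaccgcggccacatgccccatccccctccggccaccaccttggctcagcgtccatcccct
Urod promoter, chr4:116994364-116994663, minus strand: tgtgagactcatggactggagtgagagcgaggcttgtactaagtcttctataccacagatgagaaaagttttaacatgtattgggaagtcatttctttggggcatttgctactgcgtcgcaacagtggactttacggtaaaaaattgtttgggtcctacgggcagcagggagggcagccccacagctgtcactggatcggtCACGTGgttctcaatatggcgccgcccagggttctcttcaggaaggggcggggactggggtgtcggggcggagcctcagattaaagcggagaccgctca

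None of the heme enzymes passed the test at any time point. A probe is called where limma's p, adjusted by Benjamini-Hochberg across the 39429 probes, is under 0.05 and the mean log2 ratio is beyond 0.5 in either direction. After 13 days of stress 0 of the 12 probes were called, where 0.0203% of all probes were called higher and 0.00254% lower. After acute stress the members gave 0 calls and all probes 0.00254% higher and 0% lower. After 8 days and in recovery 0 members were called, and 0% of all probes. At an unadjusted p under 0.05 in limma, 1 member probe was lower after 8 days (Alas1; 1.67% of all probes), 1 was higher (Fech; 3.05%) and 1 lower (Alas1; 4.13%) after 13 days, 1 was lower in recovery (Alad; 2.63%), and 0 were past it after acute stress (2.38% of all probes higher and 2.57% lower). In the other direction, where 0 members passed, the shares of all probes were 0.723% higher after 8 days and 0.926% higher in recovery.

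The sign over the 3 pools of a time point gave a like picture. After acute stress 1 of the 12 probes was above 0 in 3 of 3 pools (Fech; 13.9% of all probes) and 1 below (Alad; 14.4%). After 8 days 1 was above (the dim Uros probe; 7.5%) and 2 below (Alas1 and Alad; 11.1%). After 13 days 1 was above (Fech; 12.2%) and 1 below (Alas1; 14.4%), and in recovery 1 was above (the dim Uros probe; 8.37%) and 2 below (Alad and Uros; 12.6%). With 12 probes these counts are near those shares.

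Most single values were small. The mean ratios of the 12 probes ran between -0.11 and 0.08 after acute stress, between -0.13 and 0.06 after 8 days, between -0.11 and 0.12 after 13 days and between -0.14 and 0.07 in recovery. The median over the 12 probes was 0.02, 0.00, -0.01 and -0.03 in that order, and the median over all probes was 0.00 at each time point. Among the 144 values of single pools, 3 were over 0.3 in size, 2 of Ppox and 1 of Alad, and each of the 3 was in pool 1, for which 1 array was analysed. After 13 days the 95% intervals of the 12 probes lay within 0.859-fold and 1.27-fold, and the highest bound was that of Ppox. These bounds belong to ratios with an offset, which draws in dim probes: on the log2 scale, Ppox had -0.21 to 0.35 here and -0.53 to 0.48 with the Feature Extraction log ratio, and the dim Uros probe -0.14 to 0.08 here, -0.52 to 0.29 with that log ratio and -0.41 to 0.28 at an offset of 0.

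**Figure D1:**
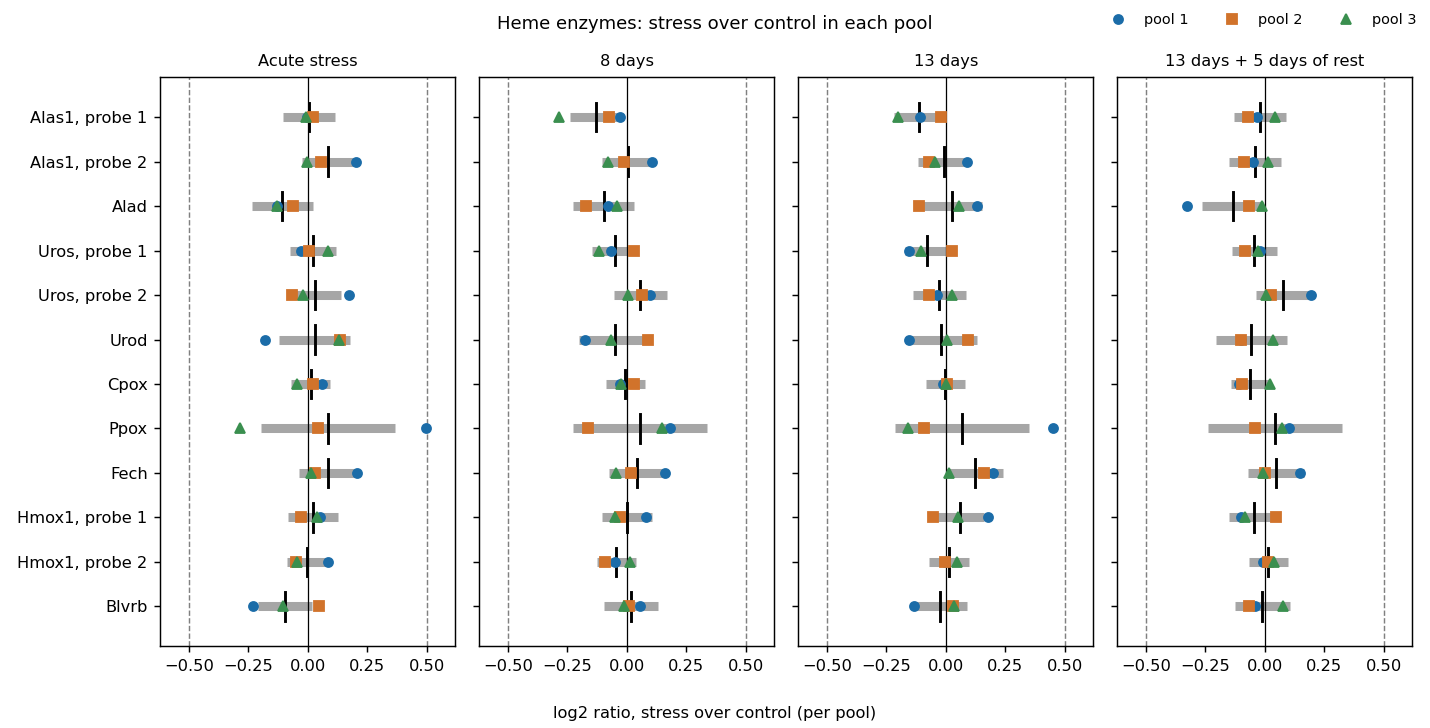
Log2 ratio of stress over control for the 12 probes of the heme enzymes (rows) at the 4 time points (panels); coloured points are the 3 pools, the black tick is their mean and the grey bar limma's 95% interval, with dashed lines at a log2 ratio of 0.5 in either direction. No mean is beyond 0.14 in size, and Ppox has the widest spread, with pool 1 at 0.49 after acute stress and at 0.45 after 13 days.

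Alas1, which makes 5-aminolevulinate and is rate limiting in most tissues, was measured by 2 probes that did not give the same picture. At the first probe (A_55_P2083649, chr9:106136284-106136343, minus strand, from base 2144 of NM_020559) the ratios in pools 1 to 3 were 0.00, 0.02 and -0.01 after acute stress, -0.03, -0.08 and -0.29 after 8 days, -0.11, -0.02 and -0.20 after 13 days and -0.03, -0.07 and 0.04 in recovery. All 3 pools were below 0 after 8 and after 13 days, with pool 3 lowest both times. The mean was -0.13 after 8 days (SE 0.05, 95% interval -0.24 to -0.02, limma adjusted p = 1.00) and -0.11 after 13 days (SE 0.05, interval -0.22 to -0.0022, adjusted p = 0.682). Without pool 3 the means were -0.05 after 8 days and -0.07 after 13 days. In levels, the normalised log2 intensity after 13 days was 12.09, 12.19 and 11.94 in stress pools and 12.20, 12.21 and 12.14 in control pools. The groups overlapped.

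At the second Alas1 probe (A_55_P1959985, chr9:106135796-106135855, minus strand, from base 2632 of the same transcript) the ratios were 0.20, 0.06 and -0.01 after acute stress, 0.11, -0.01 and -0.08 after 8 days, 0.09, -0.07 and -0.05 after 13 days and -0.05, -0.09 and 0.01 in recovery. Pool 1 was above 0 at the first 3 time points and pools 2 and 3 lay around 0. Its means were 0.08, 0.00, -0.01 and -0.04, and the lowest unadjusted p was 0.116. Over the 12 pools the ratios of the 2 Alas1 probes had r = 0.41.

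Alad, which joins a pair of 5-aminolevulinate molecules into porphobilinogen, had ratios of -0.13, -0.06 and -0.13 after acute stress, -0.08, -0.17 and -0.04 after 8 days, 0.13, -0.11 and 0.06 after 13 days and -0.33, -0.07 and -0.01 in recovery. It was below 0 in all 3 pools at every time point but 13 days. The dye effect of Alad, as defined for Fech below, was -0.06 on average and above 0 in 1 of 8 pools. Single arrays of pools 2 and 3 read -0.26 to 0.04 with stress in Cy5 and -0.26 to 0.20 as dye swaps. The recovery mean was -0.14 (SE 0.06, interval -0.26 to -0.01, limma adjusted p = 0.999) and rests mainly on pool 1, without which it was -0.04. In recovery its level was 10.13, 10.38 and 10.77 in stress pools and 10.46, 10.45 and 10.78 in control pools, which overlap. Pool 3 lay above pools 1 and 2 in both groups, so this overlap says little about the paired ratios.

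Uros closes the ring as uroporphyrinogen III. At its first probe (A_55_P2001871, chr7:140878069-140878128) the means were 0.02, -0.05, -0.08 and -0.04, with ratios of -0.16, 0.03 and -0.10 after 13 days. After 13 days the pools fell on both sides of 0, and in recovery all 3 were below it. The dim second Uros probe (A_55_P2175356, for the transcript AK164297) had ratios between -0.07 and 0.19 over the 12 pools and r = -0.02 with the first.

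Urod removes carboxyl groups to give coproporphyrinogen III, and Cpox oxidises that to protoporphyrinogen IX. The Urod ratios were -0.18, 0.13 and 0.13 after acute stress, -0.17, 0.09 and -0.07 after 8 days, -0.15, 0.09 and 0.00 after 13 days and -0.10, -0.10 and 0.03 in recovery. Pool 1, analysed with stress in Cy5 alone, was below 0 at every time point. The dye effect of Urod, as defined for Fech below, was -0.09 on average and above 0 in 1 of 8 pools. With it taken off pool 1, the Urod mean over the 4 time points was 0.005, against -0.024 as measured. Pools 2 and 3 were above 0 after acute stress, and the mean was there 0.03 (interval -0.12 to 0.18).

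Cpox had the narrowest spread of the synthesis enzymes, with an SD of 0.05 over the 12 pools and ratios of -0.01, 0.00 and 0.00 after 13 days. Its 95% interval after 13 days was -0.08 to 0.08. The pool 2 value of 0.00 at that time averages an array at 0.26 with stress in Cy5 and its dye swap at -0.25. The SD and the interval are taken from pool values, which average over that difference.

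Ppox, which oxidises protoporphyrinogen IX to protoporphyrin IX, had the widest spread of the 12 probes, an SD of 0.24 over the pools. The ratios were 0.49, 0.04 and -0.28 after acute stress, 0.18, -0.16 and 0.15 after 8 days, 0.45, -0.09 and -0.16 after 13 days and 0.10, -0.04 and 0.07 in recovery. Pool 1 was the highest pool at every time point. After 13 days its level was 9.36, 9.09 and 9.03 in stress pools and 8.91, 9.18 and 9.19 in control pools, and the mean ratio of 0.07 (SE 0.13, interval -0.21 to 0.35) became -0.13 without pool 1. The 60 bases of this probe span 178 bases of the genome (chr1:173207452-173207629, minus strand), as given by the array annotation.

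Fech, ferrochelatase, was the one member with stress and control pools apart in level, narrowly and after 13 days alone. The ratios were 0.21, 0.03 and 0.01 after acute stress, 0.16, 0.02 and -0.04 after 8 days, 0.20, 0.16 and 0.01 after 13 days and 0.15, 0.00 and -0.01 in recovery. After 13 days its level was 11.55, 11.61 and 11.56 in stress pools, against 11.36, 11.45 and 11.55 in control pools, so that the groups did not overlap. The lowest stress level (11.552, pool 1) lay just above the highest control level (11.545, pool 3). Pool 1 was analysed with stress in Cy5 alone, and the levels were not corrected for dye. Whether the groups stay apart without the dye was not tested. Among all probes 2.94% had all 3 stress pools above all 3 control pools at that time, and 1 of the 12 member probes did. No member probe was apart in the other cases, where the shares of all probes with stress pools above and below control pools were 3.03% and 2.87% after acute stress, 0.938% and 1.39% after 8 days and 1.41% and 2.11% in recovery, and 3.25% below after 13 days. At Alad, Cpox and the second Hmox1 probe the pool numbers differed in level in both groups, so overlap says little about stress there. The Fech mean after 13 days was 0.12 (SE 0.05, interval 0.01 to 0.24, limma adjusted p = 0.672).

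The Fech ratio moved with the dye. Over the 8 pools analysed in both orientations, the arrays with stress in Cy5 read 0.04 to 0.38 and those with stress in Cy3 read -0.18 to -0.06, with no overlap, and the dye effect (0.5 times the difference of the pair) was above 0 in 8 of 8 pools, 0.13 on average (SD 0.05). Pool 1, analysed with stress in Cy5 alone, read 0.15 to 0.21, against -0.04 to 0.16 in pools 2 and 3. With the dye effect taken off pool 1, the 13-day mean was 0.08 (limma adjusted p = 0.529) and the mean over the 4 time points 0.03, against 0.07 as measured. Across the 12 member probes, the dye effect and the pool 1 ratio had r = 0.55, 0.55, 0.43 and 0.35 at the 4 time points in order, as a description over probes that share the arrays.

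**Figure D2:**
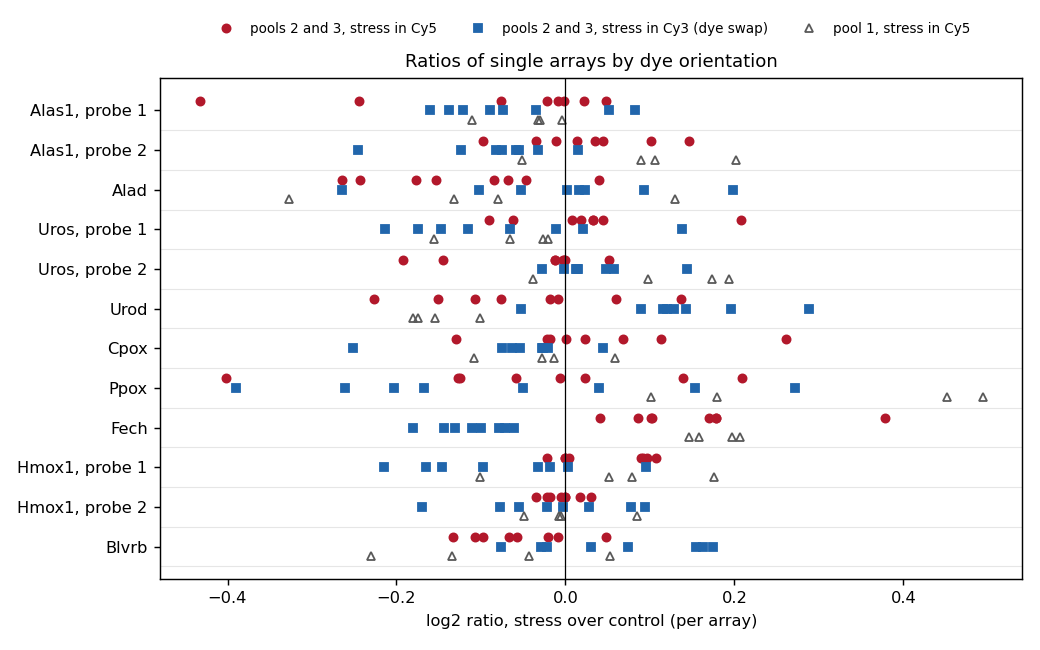
Log2 ratio of stress over control on each single array for the 12 probes, by dye orientation; red circles are pools 2 and 3 with stress in Cy5, blue squares the dye swaps of the same pools and open triangles pool 1. For Fech the red circles lie at 0.04 to 0.38 and the blue squares at -0.18 to -0.06, and pool 1 lies with the red circles at 0.15 to 0.21.

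Of the breakdown enzymes, Hmox1 was measured by 2 probes. The first (A_51_P263965, chr8:77624207-77624266, from base 1290 of the transcript) had ratios of 0.05, -0.03 and 0.04 after acute stress, 0.08, -0.03 and -0.05 after 8 days, 0.18, -0.05 and 0.05 after 13 days and -0.10, 0.05 and -0.08 in recovery. The second, printed above, stayed between -0.09 and 0.09 in all 12 pools. Its interval after 13 days was -0.07 to 0.10 with the offset and -0.11 to 0.13 at an offset of 0. At neither Hmox1 probe did 3 pools share a sign after 13 days. The lowest unadjusted p of either probe at any time point was 0.257. Hmox2, the constitutive heme oxygenase, had ratios of 0.25, 0.05 and 0.07 after 13 days (adjusted p = 0.80).

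Blvrb, which reduces flavins and biliverdin, had ratios of -0.23, 0.05 and -0.10 after acute stress, 0.05, 0.01 and -0.01 after 8 days, -0.13, 0.03 and 0.03 after 13 days and -0.04, -0.07 and 0.08 in recovery. Pool 1 gave the lowest value after acute stress and after 13 days. Its dye effect was below 0 in 7 of 8 pools. Blvra, the main biliverdin reductase of the adult, had a mean of 0.10 after 13 days (adjusted p = 0.835).

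**Figure D3:**
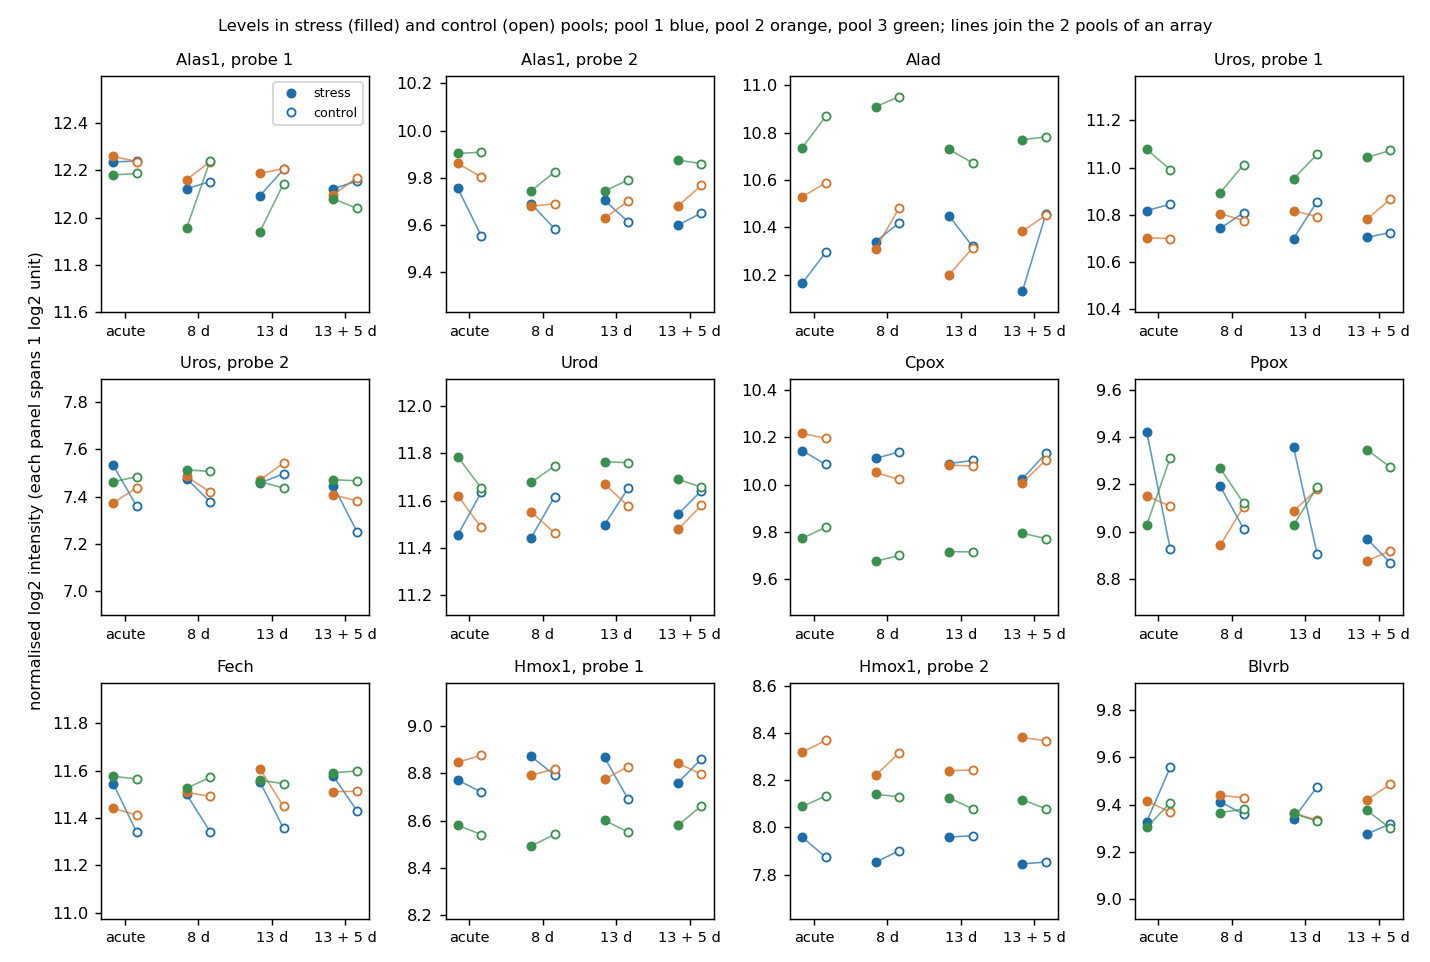
Normalised log2 intensity of the 12 probes in stress pools (filled, left) and control pools (open, right) at each time point; colours mark the pool number and each panel spans 1 log2 unit. For Alad and Cpox pool 3 lies apart from pools 1 and 2, and for the second Hmox1 probe all 3 pool numbers lie apart.

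For several members the level differed more between pool numbers than between stress and control. The exceptions were the first Alas1 probe, the dim Uros probe, Fech and Blvrb. Alad averaged 10.32, 10.41 and 10.80 in pools 1, 2 and 3, over both groups and the 4 time points, a range of 0.48, while its largest mean stress ratio was 0.14 in size. Cpox lay between 9.68 and 9.82 in pool 3, below 10.02 to 10.14 in pool 1 and 10.01 to 10.22 in pool 2. The second Hmox1 probe averaged 7.90, 8.31 and 8.11. At that Hmox1 probe the 3 pool numbers did not overlap at all (7.85 to 7.96, 8.22 to 8.38 and 8.08 to 8.14). Each pool number was on slides of its own, and pool 3 was scanned on a later day than pools 1 and 2. Mice, slides and, for pool 3, scan day cannot be told apart here. In the order of the 8 group means, the lowest and the highest were 0.05 to 0.19 apart for each probe, and no step between neighbours was over 0.08, while the largest SD within a group was 0.10 to 0.34. For each probe, neighbours in the order differed by less than that SD. Differences between pool numbers that stress and control share enter this SD, so it does not measure the spread of the paired ratios. For Alad after 8 days the SD of the stress pools was 0.34, while that of the 3 paired ratios was 0.07.

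A shift common to all 4 time points was tested with 12 pools. Here called means an adjusted p under 0.05 with no limit on the fold. Of the 12 probes 0 were called, against 0.0228% of all probes, and the lowest adjusted p was 0.57. Fech had a mean of 0.07 (9 of 12 pools above 0, limma adjusted p = 0.57), Alad -0.08 (10 of 12 below 0, adjusted p = 0.571) and the first Alas1 probe -0.06 (10 of 12 below 0, adjusted p = 0.60), which are the 3 probes at an unadjusted p under 0.05 where 7.48% of all probes were. With the dye effect taken off pool 1, the means were 0.03 for Fech (limma adjusted p = 0.644), -0.06 for Alad (adjusted p = 0.588) and -0.06 for that Alas1 probe (adjusted p = 0.542). From the original arrays alone, all of which have stress in Cy5 so that dye and stress cannot be told apart, Fech (0.16, adjusted p = 0.00371) and Alad (-0.12, adjusted p = 0.0366) were called, together with 7.09% of all probes. With array quality weights Alas1 was called (-0.10, limma adjusted p = 0.0487), but the estimate of those weights did not converge to its tolerance. No difference of the stress effect between time points passed the test. Over 36 differences (8 days minus acute, 13 days minus acute and recovery minus 13 days for each probe) 0 were called, against 0%, 0.00254% and 0% of all probes, 0 had an unadjusted p under 0.05, against 2.28%, 4.69% and 4.94%, and the lowest adjusted limma p was 1.00.

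Alas2 stood apart from the other enzymes. Its ratios were -0.24, 0.12 and -0.07 after acute stress, 0.48, 0.51 and 0.29 after 8 days, 1.03, 1.33 and 0.63 after 13 days and 0.32, 0.32 and -0.11 in recovery. After 13 days it rose by a mean of 1.00, or 2.00-fold (SE 0.11, limma adjusted p = 0.0091). In all 6 pools of 8 and of 13 days it was above every one of the 12 member probes, and after 13 days the difference from a member was 0.87 to 1.11 on average and at least 0.57 in a pool. In pool 3 of recovery it was below all 12. The call of Alas2 was kept in 7 of 15 alternative fits, whose adjusted p ran between 0.000476 and 1.00 and whose log2 ratio ran between 0.83 and 1.41. It was lost without pool 1 of 13 days (0.98, limma adjusted p = 0.121) and without pool 2 (0.83, adjusted p = 0.123), and kept without pool 3.

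The ratios of both synthase genes can be set side by side within a pool. Alas2 minus Alas1 (first probe) was -0.23, 0.10 and -0.06 after acute stress, 0.51, 0.59 and 0.57 after 8 days, 1.14, 1.35 and 0.83 after 13 days and 0.35, 0.39 and -0.15 in recovery. The difference was above 0 in every pool of 8 and of 13 days and below 0 in pool 3 of recovery. In these bulk samples fewer cells of a type and less RNA per cell cannot be told apart, nor can more cells and more RNA per cell.

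**Figure D4:**
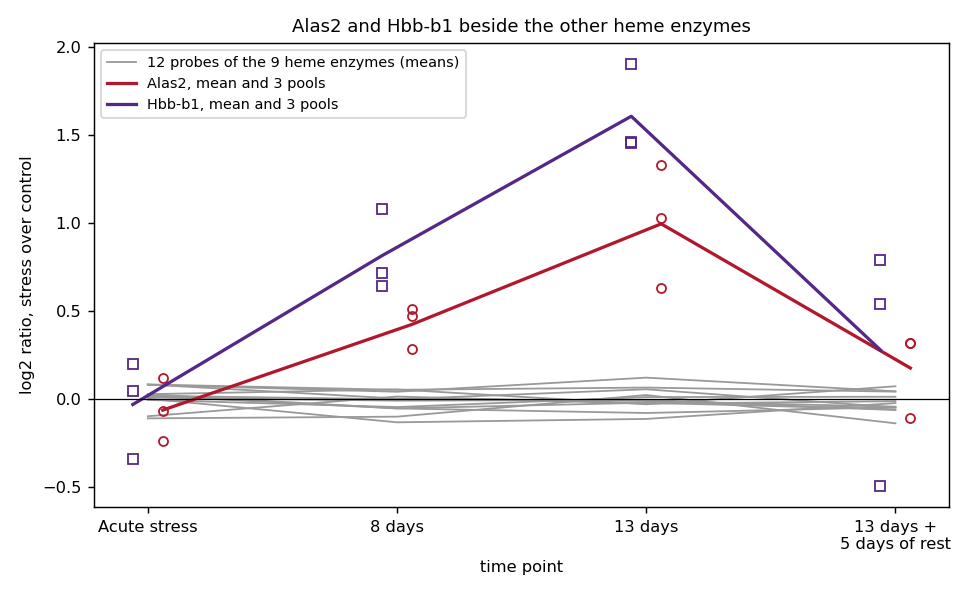
Mean log2 ratio of stress over control at the 4 time points for the 12 probes of the heme enzymes (grey lines) and for Alas2 (red) and Hbb-b1 (purple), with open symbols for their 3 pools. After 13 days Alas2 averaged 1.00 and Hbb-b1 1.61, while the 12 grey lines lie between -0.11 and 0.12.

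Hbb-b1, a beta globin, had ratios of -0.34, 0.20 and 0.05 after acute stress, 0.72, 1.08 and 0.65 after 8 days, 1.46, 1.91 and 1.45 after 13 days (mean 1.61, limma adjusted p = 0.0091, or 0.11 without pool 1 and 0.195 without pool 2) and 0.54, 0.79 and -0.49 in recovery. Over the 12 pools Alas2 and Hbb-b1 had r = 0.95. For the 9 members, each by its brightest probe, r with Hbb-b1 ran between -0.46 (Alas1) and 0.25 (Hmox1), and with p-values adjusted over the 9 correlations the lowest was 0.70 by Pearson's r and 0.213 by Spearman's rho (permutation test, 100000 draws, two-sided). For Alas1 r was -0.46 (permutation p = 0.136) and rho -0.66 (permutation p = 0.0237), within time points r was 0.00, and with the 2 pools of most extreme Hbb-b1 ratio left out it was -0.56 (permutation p = 0.0911). Within time points r was -0.60 for Cpox, -0.52 for Alad and -0.41 for Ppox, and 0 of 9 passed after adjustment (lowest adjusted permutation p = 0.744). Within time points and pool numbers r was -0.94 for Cpox, -0.65 for Ppox, -0.49 for Alad and -0.47 for Alas1, given as a description of 12 pools with few degrees of freedom left. Taking the dye effect off pool 1 left 0 of 9 past the adjusted threshold.

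The members were also set against each other. Over 66 pairs of member probes the median r across the 12 pools was 0.07, with Urod and Ppox at -0.77 and the second Alas1 probe and Ppox at 0.69. All these ratios share the arrays and pool 1 with the 1 dye orientation analysed, and with the dye effect taken off pool 1 the median was 0.06. The highest pairs were then Uros (first probe) and Urod at 0.84, against 0.69 as measured, and Alad and Hmox1 (first probe) at 0.73, against 0.61, while the second Alas1 probe and Ppox were at 0.56 and Urod and Ppox at -0.66. Among 19658 probes with a gene symbol and a signal well above background on all arrays, the most alike to each member were Gcap14 for Alas1 (r = 0.96), Wdr13 for Alad (0.94), Mpp6 for Uros (0.94), Dnajc9 for Urod (0.98), Opa3 for Cpox (0.95), Arrdc1 for Ppox (0.93), Slc6a15 for Fech (0.95), Inpp5e for Hmox1 (0.91) and Zfat for Blvrb (0.89). These are the highest of many r values over 12 pools.

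The surroundings of the pathway were described by lists with 1 probe per gene. Of 7 other heme enzymes, 1 was called higher after 13 days (Alas2) and 0 at the other times. Hmox2, Blvra and those that follow were named after their values were seen. Cox10, Cox15 and Hccs, which make heme A and attach heme to cytochrome c, had 13-day means of -0.03, -0.05 and 0.06. Of 17 measured genes for heme and porphyrin transport and binding 0 were called at any time point. Tspo, a mitochondrial outer membrane protein that binds porphyrins, had ratios of 0.13, 0.14 and 0.12 after 8 days (limma adjusted p = 1.00). Abcg2, a porphyrin exporter, had -0.18, -0.19 and -0.05 after acute stress (adjusted p = 0.931).

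Of 17 iron genes 0 were called. Trf, transferrin, the iron carrier of plasma that oligodendrocytes also make, had ratios of 0.44, 0.37 and 0.41 after acute stress. The mean of 0.40 was below the threshold of 0.5, and the limma adjusted p of 0.0549 was just short of its own. After 13 days the Trf ratios were -0.05, 0.07 and -0.11. The 4 oligodendrocyte markers had a median ratio of 0.21 after acute stress and -0.06 after 13 days, and their part in the Trf values was not tested. Heph, a ferroxidase that helps iron leave cells, had 0.18, 0.24 and 0.18 after acute stress (adjusted p = 0.543).

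Of 19 regulators of heme genes and genes of the Nrf2 response, which controls Hmox1, 0 were called. Nfe2l2, which encodes Nrf2, had 0.06, 0.22 and 0.10 after 13 days (limma adjusted p = 0.568), and Hif1a, the hypoxia factor, 0.07, 0.30 and 0.18 (adjusted p = 0.623). Of 18 measured red cell genes 6 were called higher after 13 days, namely Hbb-b1, Hbb-b2, Beta-s, Hba-a1, Hba-a2 and Alas2. Their 13-day means were 1.61, 1.46, 1.43, 1.34, 1.40 and 1.00.

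The cortex label was checked with marker lists. The 7 neuron markers, 4 astrocyte, 4 oligodendrocyte and 4 endothelial markers were above background on all 20 arrays, as were 5 of 6 microglia and macrophage markers (not Cd163) and 3 of 4 olfactory bulb markers (not Eomes), the bulb being next to the frontal pole in the slice. After 13 days the median ratio was 0.05 for neurons, -0.22 for astrocytes, -0.06 for oligodendrocytes, -0.02 for microglia and macrophages, -0.11 for endothelium, -0.10 for olfactory bulb and 1.00 for red cells, with 3 red cell markers called and 0 of the others. Their part in the ratios of the heme enzymes was not tested. On an array 70.5% to 74.4% of probes were well above background, 0 spots were saturated, and the number of arrays limits the precision.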

How the data were processed

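Stress and control pools were compared on dual-colour arrays whose scans the authors read with Agilent Feature Extraction 10.10.1.1. The deposited scanner tables hold mean spot intensity and background in red and green, with no normalization, a log10 ratio of red over green normalized by that software, and marks for outlier, control and background spots, which are other values of 0 or 1 per the file headers. The authors' value table holds log2 ratios of stress over control, which had a median r of 0.9997 with ratios made here at an offset of 0.

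In R 4.3.3 with limma 3.58.1 and statmod 1.5.0, intensities were corrected by normexp (offset 50), normalized by loess and Aquantile, and 43020 spots averaged to 39429 probes. Each swap was given the opposite sign, then the mean of swap and original was taken. limma fitted 1 coefficient per time point to 12 pools (prior degrees of freedom 4.86), and an SE is that of this fit. Dim probes keep small ratios because of the offset. On simulated data (39429 probes), 18 of 40 probes changed by 0.5 on the log2 scale after 13 days were called. At 0.75 it was 40 of 40 and at 1 also 40 of 40, with 2 false calls. The change of 0.5 equals the fold threshold. The changed probes were all above background on every array, were changed together and had independent normal noise. Many true changes at once ease the adjusted threshold, so these shares can be higher than for the real probes. Among the real probes 0 were called after 8 days, where the highest mean of a red cell gene was 0.82. Alternatives were other background corrections, normalizations, filters, blocks, weights and left-out pools. The limma p-values rest on the spread between pool ratios, shared over the 4 time points and moderated over probes. In that spread the mice of a pool, its slides, its scan day and the 1 dye orientation of pool 1 cannot be told apart.

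Members and lists were chosen with earlier results of these data known. By the naming rule, named were every member probe, called genes of each list or otherwise (above background) its 2 genes of lowest p, Alas2, Hbb-b1 and the gene most alike to each member. Hmox2, Blvra, Cox10, Cox15 and Hccs fall outside this rule. Positions are those of the array annotation. Values of some listed genes are not reported here.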

Additional observations from a re-analysis of the deposited data

How the results depend on the processing

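The count of 0 called members at each time point and on the differences between time points was the same under all 12 alternative settings and in the fits that leave out single pools. On the mean over the 4 time points, 2 member probes were called from the original arrays alone, where dye and stress cannot be told apart (Fech and Alad), and 1 with array quality weights (Alas1), where 7.09% and 0.997% of all probes passed, and 0 under the other settings. With array quality weights, which gave pool 2 of recovery a weight of 10.7 and pool 1 of it 0.309, 5 member probes had an adjusted p under 0.05 in recovery, all lower and under 0.1 in size on the log2 scale, as had 28.7% of all probes. The estimate of these weights did not converge to its tolerance. The median of the member probes with median centring within arrays was 0.16 after acute stress, -0.0775 after 8 days and 0.0613 after 13 days, where the probes above background on all arrays had medians of 0.09, -0.04 and 0.01. After 13 days it was -0.0271 with the Feature Extraction log ratio and 0.0160 from the original arrays alone, and -0.0121 to 0.00766 without single pools. The cause was not tested. Of 540 values of member genes at single time points under alternatives, 66 had the other sign, and 0 passed both the adjusted p and the fold threshold used there; the mean over the 4 time points has no fold threshold.

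Calls over all probes moved more. After 13 days they were 9 in the analysis used above, 0 from the authors' value table, under a trended robust prior, under median centring and at an offset of 0, 3 with the Feature Extraction log ratio and 18 from the original arrays alone, 0 without pool 1 or pool 2 and 15 without pool 3. After acute stress they were 1 in that analysis, 67 from the original arrays alone and 20 with array quality weights. After 8 days and in recovery, where 0 were called, the original arrays alone gave 26 and 46 and array quality weights 1 and 38.

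The pool numbers were tried as a replicate block, which changed no count of called members (0 at each time point). Deviations of same-numbered pools correlated at 0.09 to 0.51 for number 1, -0.12 to 0.37 for number 2 and 0.03 to 0.45 for number 3. Over all probes the block gave 10 calls after 13 days and 2 after acute stress.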
